A study of Mus musculus with 6 samples.

Results

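The gene set described here holds 7 genes of caveolae: the cavin genes Prkcdbp (cavin-3), Ptrf (cavin-1) and Sdpr (cavin-2), the caveolin genes Cav1 and Cav2, and the accessory genes Pacsin2 and Ehd2. They were found by symbol among the 21878 rows of an RNA sequencing table, and all 7 were present. The set was chosen by the FPKM values of Prkcdbp, which in these same libraries were higher when the long noncoding RNA lncPim1 was overexpressed and lower when it was knocked down. Prkcdbp is therefore described below without a test, and the other 6 genes entered as its structural partners, with earlier results of these data known.

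The cells were Neuro-2a, a mouse neuroblastoma line derived from the sympathetic lineage. The 6 libraries formed 3 groups of 2: cells overexpressing lncPim1, cells treated by RNA interference against lncPim1 (knockdown), and control cells, whose treatment the labels give as wild type. The labels name no empty vector, no scrambled RNA, no culture time and no separate cultures. The p-values below therefore reflect differences between libraries of a group that may be purely technical. The targeted RNA itself was not analysed here, and the labels could therefore not be checked on it.

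Caveolae are flask-shaped pits of the plasma membrane that buffer membrane tension and gather signalling receptors. Caveolins are inserted into the membrane and form the scaffold, while cavins are recruited from the cytosol and coat the pit. Cavin-1 is required for caveolae to form, whereas cavin-2 and cavin-3 adjust their shape and trafficking. Endothelial cells, adipocytes and muscle cells are rich in caveolae, and mature neurons are generally poor in them.

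Values are FPKM, fragments scaled by transcript length and by library size, so levels of different genes can be set side by side. Summed FPKM per library was 294510 and 303139 under overexpression, 277508 and 272528 under knockdown, and 298032 and 305463 in control cells, and the absolute depth is unknown. Fold changes were computed on the log2(FPKM + 1) scale, which understates changes of low genes, and a gene entered the test when its mean reached 1 FPKM. Of the 7 caveolar genes 5 passed that filter, among 10721 tested genes in all. A gene was called when its Benjamini-Hochberg adjusted p from limma was under 0.05.

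The cavin side of the caveolar coat was transcribed in Neuro-2a cells and the caveolin side was at or near 0. Only transcripts were measured, and not the membrane pits themselves. Mean levels over the 6 libraries ran in the order Pacsin2 (50.9 FPKM), Sdpr (34.5), Ptrf (8.78), Prkcdbp (3.92), Ehd2 (3.26), Cav2 (0.0081) and Cav1 (0.0059). Pacsin2 lay above 95.3% of all rows by mean level and Sdpr above 92.5%. The ranges of Pacsin2 (46.2 to 54.0 FPKM), Sdpr (28.2 to 42.9) and Ptrf (7.24 to 10.1) did not touch. The range of Ehd2 (2.16 to 4.24 FPKM) lay inside that of Prkcdbp (0.750 to 8.76), so the order of these neighbours depended on the group.

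**Figure D1:**
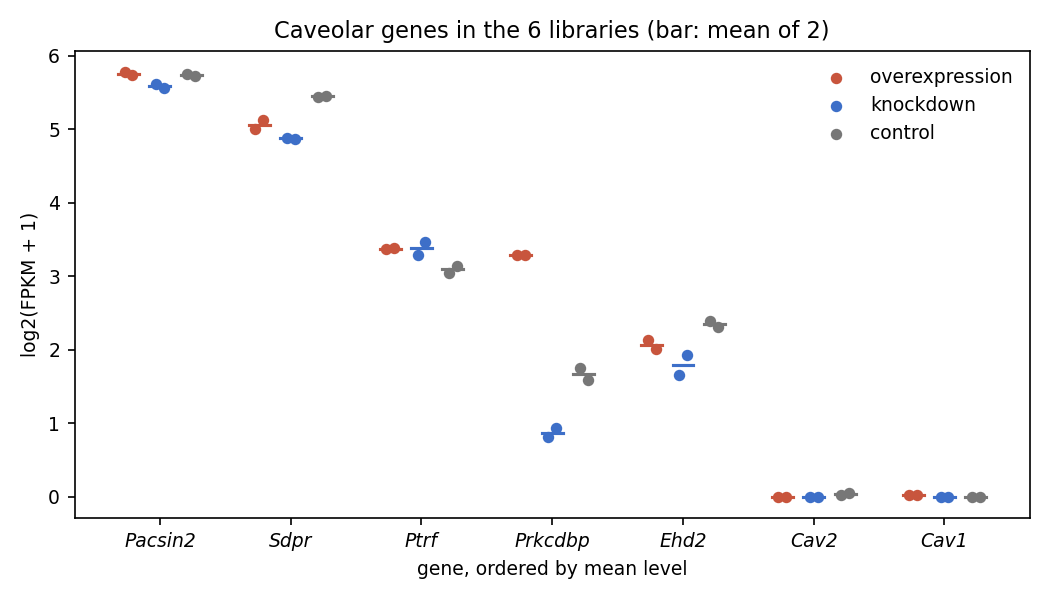
Level of each caveolar gene, as log2(FPKM + 1), in each of the 6 libraries, with 2 points for each group and a bar at their mean. Prkcdbp separates the 3 groups, at 8.76 and 8.75 FPKM under overexpression, 0.750 and 0.907 under knockdown and 2.37 and 2.00 in control cells, while Cav1 and Cav2 lie at or near 0 in every library.

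Most of the listed markers of cell types rich in caveolae averaged under 1 FPKM. Of 11 fibroblast and smooth muscle markers 0 had a mean of 1 FPKM or more, and their sum was 1.80 and 1.504 FPKM under overexpression, 2.41 and 2.67 under knockdown, and 1.55 and 1.65 in control cells. Of 8 endothelial markers 3 had a mean of 1 FPKM or more, and Cldn5 was listed at 0 in every library. Their sum was 25.9 and 29.8 FPKM under overexpression, 41.8 and 34.9 under knockdown, and 28.2 and 28.6 in control cells, with Egfl7 alone at a mean of 27.6 FPKM. Of 6 adipocyte markers only Pparg (4.06 FPKM) and of 8 muscle markers only Myh3 (15.8 FPKM) and Des reached 1 FPKM. Of 7 epithelial markers only Krt8 (1.09 FPKM) did. Of 7 macrophage markers Lyz2 and Cd68 did. Under knockdown limma called Egfl7 higher (0.43 ± 0.10, SE, adjusted p = 0.00659) and Des higher (0.25 ± 0.09, adjusted p = 0.0430). Myh3 was called lower there (-0.38 ± 0.05, limma, adjusted p = 6.53e-04), and Pecam1, Esam and Pparg were not called. Lyz2 averaged 4.35 ± 0.19 FPKM under overexpression, 4.85 ± 0.36 under knockdown and 6.67 ± 0.41 in control cells (SD, n = 2 each). Cd68 stood at 0.528 and 0.570 FPKM under overexpression, 3.31 and 4.31 under knockdown, and 0.348 and 0.397 in control cells. It passed the filter only through its knockdown values, so its rise of 1.80 ± 0.11 (SE) under knockdown is given without a test. Of 15 neuroblastoma and sympathetic markers 11 reached 1 FPKM, led by Chgb (229 FPKM). Under knockdown 7 of these 11 were lower and 1 higher, in a contrast in which 31.3% of all tested genes were called lower and 14.8% higher. The largest falls were those of the transcription factor genes Hand2 (0.60 ± 0.06, SE) and Phox2a (0.58 ± 0.08) and the neuronal RNA-binding protein gene Elavl4 (0.51 ± 0.06). All were called by limma and were close in size to the falls of Sdpr and Ehd2 given below. The marker called higher, Th, changed more, by 0.99 ± 0.12 (SE, limma, adjusted p = 4.97e-04). Chgb (0.01 ± 0.12), Stmn2 (-0.08 ± 0.05) and Gata3 (-0.19 ± 0.08) were not called. The part of these marker transcripts in the caveolar values was not tested. In bulk RNA, fewer cells with a transcript and less of it per cell cannot be told apart.

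Cav1 encodes the caveolin that forms the scaffold outside muscle. It stood at 0.0166 and 0.0188 FPKM under overexpression, was listed at 0 in both knockdown libraries, and was listed at 0 in both control libraries. Cav2 encodes the partner that joins Cav1 in mixed oligomers. It was listed at 0 in all 4 overexpression and knockdown libraries and stood at 0.0159 and 0.0327 FPKM in control cells. Both genes were below the filter in every group, and no fold is given for either. Over the whole data set 20.9% of rows were at 0 in all 6 libraries, so an entry of 0 is given as listed and not as absence. The muscle caveolin gene Cav3 was low too, at 0.384 and 0.665 FPKM under overexpression, 0.195 and 0.223 under knockdown, and 0.637 and 0.303 in control cells. Its knockdown values lay below those of control cells, and its overexpression values overlapped them.

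Cav1 and Cav2 are neighbours on chromosome 6 of build GRCm38, Cav1 from 17306335 to 17341452 and Cav2 from 17281185 to 17289115, both on the plus strand. The genes measured around them were low too. Of 9 annotated genes that start within 250 kb of the start of Cav1, 3 were in the table, Cav2 among them, and 0 reached the filter. The others were Tes, which encodes a focal adhesion protein, at up to 0.0775 FPKM, and the receptor tyrosine kinase gene Met at up to 0.0140 FPKM. The antisense gene Gm15581 spans both caveolin genes, and it is not in the table. Whether reads were counted by strand is not stated, so the few reads of Cav1 and Cav2 cannot be placed on one strand.

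The promoters of these nearly silent caveolin genes are shown beside those of 2 transcribed cavin genes, Ptrf and Sdpr. Each is the RefSeq window of build GRCm38.p6 from 250 bases before to 50 bases after the most upstream start, written along the strand of the gene. RefSeq windows were matched for 6 of the 7 genes. Capitals mark any match to 7 short motifs, searched on both strands.
Cav1 (chr6:17306085-17306384, plus strand): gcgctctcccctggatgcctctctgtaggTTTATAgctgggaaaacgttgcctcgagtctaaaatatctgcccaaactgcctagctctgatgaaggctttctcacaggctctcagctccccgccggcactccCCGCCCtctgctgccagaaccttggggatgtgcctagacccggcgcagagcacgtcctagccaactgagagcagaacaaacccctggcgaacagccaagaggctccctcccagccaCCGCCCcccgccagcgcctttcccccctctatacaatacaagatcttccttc
Cav2 (chr6:17280935-17281234, plus strand): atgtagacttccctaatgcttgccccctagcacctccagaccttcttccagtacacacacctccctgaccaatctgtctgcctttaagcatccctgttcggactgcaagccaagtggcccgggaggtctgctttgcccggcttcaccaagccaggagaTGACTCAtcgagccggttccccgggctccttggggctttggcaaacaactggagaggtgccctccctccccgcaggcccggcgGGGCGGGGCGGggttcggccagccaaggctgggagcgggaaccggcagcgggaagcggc
Ptrf (chr11:100970568-100970867, minus strand): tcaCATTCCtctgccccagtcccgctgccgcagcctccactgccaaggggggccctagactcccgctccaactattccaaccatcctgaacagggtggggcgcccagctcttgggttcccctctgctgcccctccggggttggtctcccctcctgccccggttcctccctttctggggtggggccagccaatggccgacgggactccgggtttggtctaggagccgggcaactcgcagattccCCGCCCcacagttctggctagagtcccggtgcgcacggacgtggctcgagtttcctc
Sdpr (chr1:51288876-51289175, plus strand): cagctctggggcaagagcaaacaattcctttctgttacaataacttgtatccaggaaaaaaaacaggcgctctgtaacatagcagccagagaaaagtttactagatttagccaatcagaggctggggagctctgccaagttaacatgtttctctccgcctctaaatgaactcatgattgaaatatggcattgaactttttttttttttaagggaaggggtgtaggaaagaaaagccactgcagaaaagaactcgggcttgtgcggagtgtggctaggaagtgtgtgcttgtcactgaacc
The window of Cav1 held 59.3% G and C, that of Cav2 64.3% and that of Ptrf 66.7%, against a median of 52.7% over 32851 RefSeq windows. The window of Sdpr was poorer, at 43.3%, and its ratio of observed to expected CpG was 0.29, against 0.53 for Cav1, 0.52 for Cav2 and 0.52 for Ptrf. The GC box GGGCGG, the site of the Sp1 family, occurred 2 times in Cav1, 2 times in Cav2, where the matches overlap, and 1 time in Ptrf, and was in 35.7% of all windows. The TATA box pattern TATAAA occurred in Cav1 alone of the 4, at -221 from the start and on the opposite strand, and in 13.6% of all windows. The AP-1 site TGANTCA occurred in Cav2 alone of the 4 and in 7.81% of all windows. The TEAD site GGAATG occurred in Ptrf alone of the 4 and in 14.7% of all windows. The antioxidant response element core TGACNNNGC (in 12.4% of all windows), the Egr site GCGNGGGCG (5.55%) and the E-box CACGTG (7.15%) were in 0 of the 4 windows, and the Sdpr window held 0 matches to any of the 7 motifs. The AP-1 and antioxidant patterns can overlap. GC boxes were thus present in both nearly silent genes and in 1 of the 2 transcribed genes shown. Among windows not shown, the most upstream ones of the transcribed genes Ehd2 and Pacsin2 each held 2 GC boxes. That of Pacsin2 also held 1 Egr site, and a second Cav1 window held 0 GC boxes. These letters describe the windows only.

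Cavin transcripts were dominated by Sdpr in every library, and the smaller shares changed with the group. Prkcdbp encodes cavin-3, also known as a binding protein of protein kinase C delta. It stood at 8.76 and 8.75 FPKM under overexpression, 0.750 and 0.907 under knockdown, and 2.37 and 2.00 in control cells. The 3 groups did not overlap, which is the pattern the gene was chosen for. Its mean was 4.01 times the control mean under overexpression and 0.379 times the control mean under knockdown. On the log2(FPKM + 1) scale the differences were 1.62 ± 0.09 (SE) and -0.80 ± 0.09. They were 1.96 and -1.30 with a pseudocount of 0.1 FPKM. Low transcripts of the digestive tract were lower under knockdown as well. A list of them was drawn up, and 2 genes left out, after values were seen. The other 19 summed to 32.7 and 49.1 FPKM under overexpression, 0.842 and 0.684 under knockdown, and 39.2 and 30.3 in control cells. The overexpression sums overlapped those of control cells. The part of these digestive transcripts in the values of Prkcdbp was not tested. Prkcdbp lies on chromosome 7 of GRCm38 from 105480083 to 105482300 on the minus strand, and its first 374 bases overlap Gm45667 on the plus strand, which is not in the table.

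Ptrf encodes cavin-1, the coat protein without which caveolae do not form. It stood at 9.33 and 9.42 FPKM under overexpression, 8.78 and 10.1 under knockdown, and 7.24 and 7.85 in control cells. Both treated groups lay above both control libraries and overlapped each other. Under knockdown Ptrf rose by 0.29 ± 0.07 (SE) on the log2 scale (limma, adjusted p = 0.0138), and the call was lost without control 1 (0.0921) or knockdown 2 (0.0809), with a range of 0.00476 to 0.0921 over 15 alternatives. Under overexpression its difference was 0.28 ± 0.07 and was not called (limma, adjusted p = 0.112, 0.0771 to 0.430 over the alternatives). The difference between overexpression and knockdown was -0.004 ± 0.07 (limma, adjusted p = 0.971). Ptrf lies on chromosome 11 of GRCm38, from 100956733 to 100970887 on the minus strand.

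Sdpr encodes cavin-2, a serum deprivation response protein that lengthens caveolar membranes. It stood at 31.0 and 34.0 FPKM under overexpression, 28.5 and 28.2 under knockdown, and 42.4 and 42.9 in control cells. All 4 treated libraries lay below both control libraries. Sdpr fell by 0.57 ± 0.06 (SE) on the log2 scale under knockdown (limma, adjusted p = 1.86e-04) and stayed called in 15 of 15 alternatives, with adjusted p of 1.26e-04 to 0.0036. Under overexpression it fell by 0.39 ± 0.06 (limma, adjusted p = 0.0177), and the call was lost without a filter on low values (0.0832), without control 1 (0.153), without control 2 (0.102) and without overexpression 1 (0.114), the lowest of the alternatives being 0.0158. Sdpr lies on chromosome 1 of GRCm38, from 51289126 to 51302960 on the plus strand, wholly within the antisense gene 9330175M20Rik, which is not in the table, so the same limit of strand holds for its reads.

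The 3 cavins thus differed in direction over the same libraries. Prkcdbp was high under overexpression and low under knockdown, the pattern it was chosen for. The Ptrf values of both treated groups lay above those of control cells, although its overexpression difference was not called. The Sdpr values of both groups lay below. Of all tested genes 23.3% lay above control in this way under overexpression and 26.5% under knockdown. The shares below control were 26.2% and 47.9%. The contrasts of overexpression and of knockdown share the same control libraries, so the like direction of Ptrf, or of Sdpr, in both is not 2 independent observations.

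As a share of summed cavin FPKM, with the muscle cavin gene Murc (cavin-4) included, Prkcdbp made up 17.7% and 16.6% under overexpression, 1.94% and 2.27% under knockdown, and 4.51% and 3.76% in control cells. Sdpr made up 62.6% and 64.5% under overexpression, 73.7% and 70.3% under knockdown, and 80.8% in both control libraries. Ptrf made up 18.9% and 17.9%, 22.7% and 25.2%, and 13.8% and 14.8% in the same order of groups. Prkcdbp was level with Ptrf under overexpression, where Ptrf was 1.06 and 1.08 times Prkcdbp, while under knockdown Ptrf was 11.7 and 11.1 times Prkcdbp and in control cells 3.05 and 3.92 times. Summed cavin FPKM was 49.5 and 52.6 under overexpression, 38.7 and 40.0 under knockdown, and 52.5 and 53.1 in control cells. The knockdown libraries had the lowest sums, and one overexpression library lay within the control range. Murc itself stayed under 1 FPKM in every library, between 0.382 in a control library and 0.902 in a knockdown library.

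**Figure D2:**
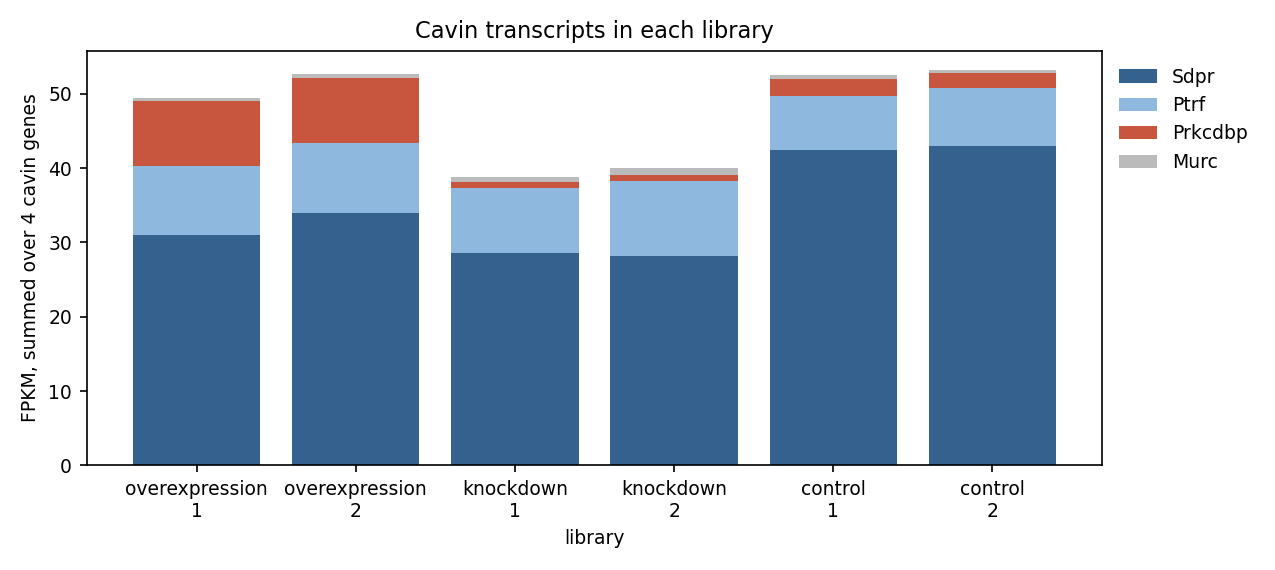
Summed FPKM of the 4 cavin genes in each library, with each gene as a part of the bar. The part of Prkcdbp is widest under overexpression (17.7% and 16.6% of the sum) and the whole bar is shortest under knockdown (38.7 and 40.0 FPKM).

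Ehd2 encodes an ATPase that rings the neck of the caveola and holds it at the cell surface. It stood at 3.36 and 3.02 FPKM under overexpression, 2.16 and 2.80 under knockdown, and 4.24 and 3.98 in control cells. The 3 groups did not overlap, with the lowest values under knockdown and the highest in control cells. Under knockdown Ehd2 fell by 0.56 ± 0.10 (SE) on the log2 scale (limma, adjusted p = 0.0026) and stayed called in 14 of 14 alternatives. Under overexpression the difference was -0.29 ± 0.10 and was not called (limma, adjusted p = 0.197, 0.126 to 0.551 over the alternatives). Ehd2 lies on chromosome 7 of GRCm38, from 15946958 to 15967567 on the minus strand.

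Pacsin2 encodes an F-BAR protein that bends the membrane at caveolae and at other sites of endocytosis. It stood at 54.0 and 52.4 FPKM under overexpression, 48.1 and 46.2 under knockdown, and 52.8 and 52.1 in control cells. The overexpression and control values overlapped, and both knockdown values lay below them. Under knockdown its difference was -0.15 ± 0.05 (SE, limma, adjusted p = 0.0291), and it was 0.01 after quantile normalization (0.889) and no longer called after median log ratio scaling (0.298), without the expression trend (0.0609), or without control 1 (0.130), control 2 (0.0941) or knockdown 2 (0.120), the lowest of the alternatives being 0.0256. The median over all tested genes was -0.07 in this contrast, so the decrease of Pacsin2 is near the shift of the whole table. Under overexpression the difference was 0.02 ± 0.05 (limma, adjusted p = 0.888). Pacsin2 lies on chromosome 15 of GRCm38, from 83375607 to 83464606 on the minus strand, with the processed pseudogene Gm5417 inside it.

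**Figure D3:**
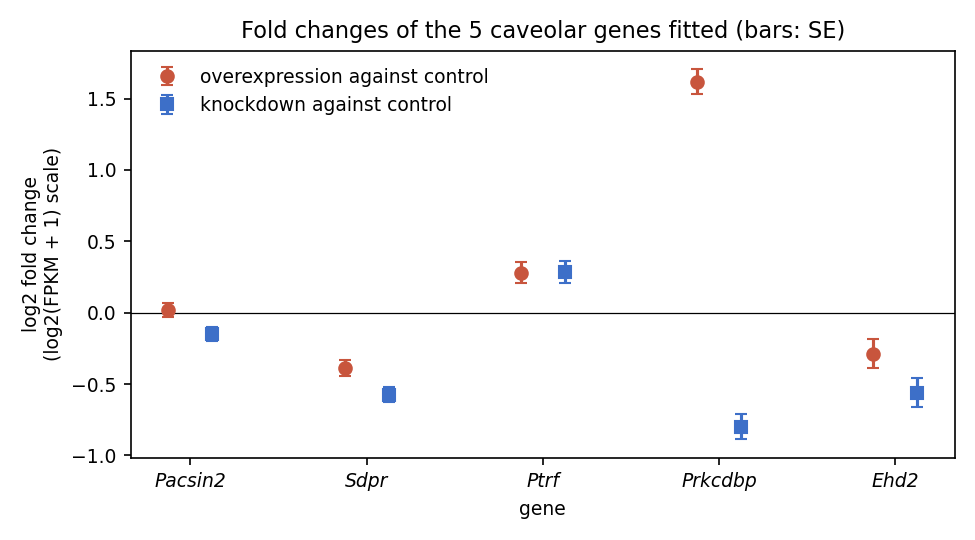
Log2 fold change with its SE for the 5 caveolar genes that passed the filter, for overexpression against control and for knockdown against control. Prkcdbp has opposite signs (1.62 and -0.80), Sdpr (-0.39 and -0.57) and Ehd2 (-0.29 and -0.56) are below 0 in both, Ptrf (0.28 and 0.29) is above 0 in both, and Pacsin2 is near 0 (0.02 and -0.15). Both contrasts use the same control libraries.

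Counted over the 4 tested genes other than Prkcdbp, 1 was lower and 0 higher under overexpression, in a contrast in which 1.54% of all tested genes were called (0.69% higher, 0.849% lower). Under knockdown 1 was higher and 3 lower, in a contrast in which 46.2% of all tested genes were called (14.8% higher, 31.3% lower), so calls among these 4 are not unusual there. Of overexpression against knockdown 2 were higher and 0 lower, and 40.5% of all tested genes were called (28.1% higher, 12.4% lower). Counted by libraries that do not overlap, 1 gene lay above and 2 lay below control under overexpression, against 23.3% and 26.2% of all tested genes. Under knockdown 1 lay above and 3 below, against 26.5% and 47.9%, and 3 lay higher and 0 lower under overexpression than under knockdown, against 47.2% and 24.7%. These counts are read as a description of 4 genes and not as a result about caveolae. The called genes of overexpression against knockdown were Sdpr, with a difference of 0.19 ± 0.06 (SE, limma, adjusted p = 0.0262), and Pacsin2, with 0.17 ± 0.05 (limma, adjusted p = 0.0215). The Sdpr call was lost after median log ratio scaling (0.152) and quantile normalization (0.285) and without overexpression 2 (0.171), knockdown 1 (0.067) or knockdown 2 (0.0819), the lowest of the alternatives being 0.0198. The Pacsin2 call was lost after the same scalings (0.177 and 0.824) and without overexpression 1 (0.107), overexpression 2 (0.0526) or knockdown 2 (0.0901), the lowest being 0.0184. Ehd2, at 0.27 ± 0.10, was not called (limma, adjusted p = 0.0597), and was called without knockdown 2 (0.0176) and after quantile normalization (0.0474).

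Among 12 further genes of the caveolar machinery, 9 were tested, and limma called 0 of them under overexpression, with 6 at an unadjusted p under 0.05 and a median log2 fold change of 0.12, against -0.003 over all tested genes. Under knockdown 3 were higher and 1 lower, beside 14.8% and 31.3% of all tested genes, with a median of 0.16 against -0.07. Without control 1, control 2 or knockdown 1 the count was 1 higher and 1 lower. Flna encodes filamin A, which ties caveolae to actin stress fibres. It stood at 75.9 and 74.1 FPKM under overexpression, 48.7 and 51.5 under knockdown, and 64.7 and 65.0 in control cells. Its 3 groups did not overlap. Under knockdown Flna fell by 0.37 ± 0.05 (SE, limma, adjusted p = 6.15e-04) and stayed called in 15 of 15 alternatives, while the difference of 0.21 ± 0.05 under overexpression was not called (limma, adjusted p = 0.0817). Against knockdown, overexpression gave 0.57 ± 0.05 (limma, adjusted p = 2.42e-04).

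The EH-domain paralogues of Ehd2, which remodel endosomal membranes, varied among themselves in direction. Ehd1 stood at 40.9 and 39.5 FPKM under overexpression, 45.8 and 43.9 under knockdown, and 34.5 and 38.3 in control cells. Its control values were the lowest. It rose under knockdown by 0.30 ± 0.06 (SE, limma, adjusted p = 0.00443) in 15 of 15 alternatives. Ehd2, itself lower in both treated groups, made up 6.13% and 5.77% of summed FPKM of the 4 Ehd genes under overexpression. Its share was 3.69% and 5.002% under knockdown, and 8.71% and 7.54% in control cells. Ehd3 averaged 2.90 ± 0.04 FPKM under overexpression, 4.29 ± 0.42 under knockdown and 3.62 ± 0.18 in control cells (SD, n = 2 each), and Ehd4 averaged 7.25 ± 0.56, 5.67 ± 0.37 and 6.58 ± 0.18. Neither was called against control. Between overexpression and knockdown Ehd3 was lower (-0.44 ± 0.08, limma, adjusted p = 0.0037) and Ehd4 higher (0.31 ± 0.07, adjusted p = 0.0118), and the Ehd4 call was lost without overexpression 1 (0.0764) or knockdown 2 (0.0615), with a range of 0.00967 to 0.0764 over 15 alternatives.

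Pacsin2 made up between 88.5% and 92.6% of summed FPKM of the 3 Pacsin genes in every library. Pacsin3, the muscle form, stood at 1.61 and 1.76 FPKM under overexpression, 1.66 and 1.89 under knockdown, and 1.37 and 1.22 in control cells. Its control values were the lowest. The rise under knockdown, 0.28 ± 0.09 (SE, limma, adjusted p = 0.0365), was lost without any 1 of control 1 (0.072), control 2 (0.172), knockdown 1 (0.0502) and knockdown 2 (0.161), and also without a filter (0.0567), after quantile normalization (0.123) and with a replicate block (0.0586), the lowest of the alternatives being 0.0157. Pacsin1, the neuronal form, was not called against control and was lower under overexpression than under knockdown (-0.35 ± 0.09, limma, adjusted p = 0.0125), at 2.71 and 3.29 FPKM against 4.08 and 4.09, a call lost without overexpression 1 (0.0758) or knockdown 1 (0.0504), with 0.00646 the lowest of the alternatives.

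Src, the kinase that phosphorylates caveolin-1, averaged 10.4 ± 0.42 FPKM under overexpression, 11.04 ± 0.23 under knockdown and 9.52 ± 0.01 in control cells (SD, n = 2 each). It rose by 0.19 ± 0.06 (SE) under knockdown (limma, adjusted p = 0.0231), a call lost without control 1 (0.0908), control 2 (0.0918) or knockdown 1 (0.0934), with 0.0058 the lowest of the alternatives. Abl1, another tyrosine kinase, was not called against control and was higher under overexpression than under knockdown (0.32 ± 0.06, limma, adjusted p = 0.00484). Dnm2, the dynamin that cuts caveolae from the membrane, was lower in that contrast (-0.20 ± 0.06, limma, adjusted p = 0.0233), a call lost without overexpression 1 (0.0914), overexpression 2 (0.077) or knockdown 2 (0.0987), with 0.00714 the lowest of the alternatives. Ror1, a receptor that holds cavin-1 and caveolin-1 together in human lung cancer cells, was listed at 0 in all 6 libraries.

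Proteins known to bind cavin-3 include protein kinase C delta, BRCA1 and the clock protein PER2. Prkcd averaged 8.56 FPKM under overexpression, 9.30 under knockdown and 8.25 in control cells. In the same order Brca1 averaged 15.6, 15.02 and 15.7 FPKM, and Per2 2.15, 2.24 and 2.03. None of these genes was called in any contrast, which with 2 libraries per group does not show that they were unchanged. With the related clock genes, limma called 0 of 6 genes under overexpression, with 2 at an unadjusted p under 0.05, and 3 of 6 higher and 0 lower under knockdown. In that contrast 46.2% of all tested genes were called in either direction, which is near 3 of 6. Only 14.8% were called higher, the direction of all 3 calls, and no test was made over the 6 genes. Per1 stood at 2.31 and 2.26 FPKM under overexpression, 5.67 and 5.92 under knockdown, and 1.92 and 1.86 in control cells. The knockdown libraries were far above the other 4. Per1 rose by 1.23 ± 0.07 (SE) under knockdown (limma, adjusted p = 5.37e-05) and stayed called in 14 of 14 alternatives. Cry1 rose by 0.49 ± 0.09 (limma, adjusted p = 0.0023) and Cry2 by 0.23 ± 0.06 (limma, adjusted p = 0.0171), both repressors of the clock, and the call of Cry2 was lost without control 1 (0.0974) or knockdown 1 (0.0824), with 0.00472 the lowest of the alternatives.

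Of 15 receptors and enzymes known to gather in caveolae 10 were tested, and limma called 0 under overexpression (1 at an unadjusted p under 0.05). Under knockdown 3 were higher and 3 lower, beside 14.8% and 31.3% of all tested genes, with a median log2 fold change of -0.07, equal to that of all genes. Without knockdown 1 the count was 1 higher and 2 lower, the calls of Insr, Pdgfrb and Bmpr2 being lost. Among those 6, the calcium pump gene Atp2b4 fell by 0.42 ± 0.08 (SE, limma, adjusted p = 0.00243) and the TGF-beta receptor gene Tgfbr1 by 0.32 ± 0.07 (adjusted p = 0.00458). The epidermal growth factor receptor gene Egfr rose by 0.47 ± 0.10 (limma, adjusted p = 0.00499) and the insulin receptor gene Insr by 0.30 ± 0.07 (adjusted p = 0.0089), the last call being lost without knockdown 1 (0.0578), with 0.00331 the lowest of the alternatives. The scavenger receptor gene Cd36 and the channel gene Trpc1 were at or near 0.

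Flotillins and related scaffolds organise membrane domains without caveolin. Of 12 such genes 9 were tested, and limma called 0 under overexpression (2 at an unadjusted p under 0.05). The knockdown contrast had 2 higher and 2 lower, beside 14.8% and 31.3% of all tested genes, with a median of 0.06 against -0.07. The knockdown split was 4 higher and 1 lower after median log ratio scaling and 3 and 1 after quantile normalization. Flot1 averaged 15.9 ± 1.34 FPKM under overexpression, 24.9 ± 0.58 under knockdown and 15.1 ± 1.94 in control cells (SD, n = 2 each). Flot1 rose by 0.69 ± 0.09 (SE) under knockdown (limma, adjusted p = 5.05e-04) and stomatin, Stom, by 0.33 ± 0.07 (adjusted p = 0.00411), each in 15 of 15 alternatives. The prohibitin gene Phb fell by 0.39 ± 0.06 (limma, adjusted p = 0.00148), and Phb2 by 0.24 ± 0.07 (adjusted p = 0.0171). The Phb2 call was lost after median log ratio scaling (0.0936) and quantile normalization (0.671), without a filter (0.0644), and without control 1 (0.0946), control 2 (0.0505) or knockdown 1 (0.0979), the lowest of the alternatives being 0.00365. Prohibitins act mainly in mitochondria. Flot2 was not called against control.

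The clathrin coat is the other main route of endocytosis. Of 28 genes for clathrin, its adaptors and its accessory proteins 25 were tested, and limma called 0 under overexpression (4 at an unadjusted p under 0.05). Under knockdown 14 were lower and 0 higher, beside 31.3% and 14.8% of all tested genes, with a median of -0.22 against -0.07 over all genes. After median log ratio scaling 11 were lower and 3 higher, and after quantile normalization 11 and 4. The light chain genes Clta and Cltb fell by 0.58 ± 0.05 (SE, limma, adjusted p = 1.49e-04) and 0.57 ± 0.05 (adjusted p = 1.79e-04), the neuronal adaptor gene Snap91 by 0.43 ± 0.05 (adjusted p = 3.37e-04) and the AP-2 subunit gene Ap2m1 by 0.35 ± 0.05 (adjusted p = 6.44e-04), each in 15 of 15 alternatives. Summed clathrin-list FPKM was 728 and 740 under overexpression, 657 and 658 under knockdown, and 769 and 786 in control cells.

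YAP and TAZ, with their TEAD partners, drive caveolar genes in other cell types. Yap1 was at or near 0 in these cells, and its paralogue Wwtr1 (TAZ) stood at 10.4 and 8.71 FPKM under overexpression, 12.5 and 13.3 under knockdown, and 6.73 and 8.62 in control cells. The knockdown values were the highest. Of 16 genes of the pathway 7 were tested, and limma called 0 under overexpression (3 at an unadjusted p under 0.05). Under knockdown 3 were higher and 1 lower, beside 14.8% and 31.3% of all tested genes. The list median was -0.08 there, against -0.07 over all tested genes. Wwtr1 rose by 0.69 ± 0.11 (SE, limma, adjusted p = 0.00148), the target gene Cyr61 by 0.78 ± 0.09 (adjusted p = 3.84e-04) and Amotl1 by 0.45 ± 0.09 (adjusted p = 0.00477), while Tead1 fell by 0.35 ± 0.08 (adjusted p = 0.00824), a call lost without control 1 (0.0666) or knockdown 1 (0.0514), with 0.00652 the lowest of the alternatives. The target gene Ctgf was at or near 0. Other genes of the list did not move with Cyr61. Amotl2 was not called under knockdown (-0.28 ± 0.10, SE, limma, adjusted p = 0.0534). Ankrd1 and Axl were below the filter. Ankrd1 averaged 0.522 FPKM under overexpression, 0.240 under knockdown and 0.254 in control cells, and Axl 0.372, 0.0606 and 0.0846 in the same order.

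**Figure D4:**
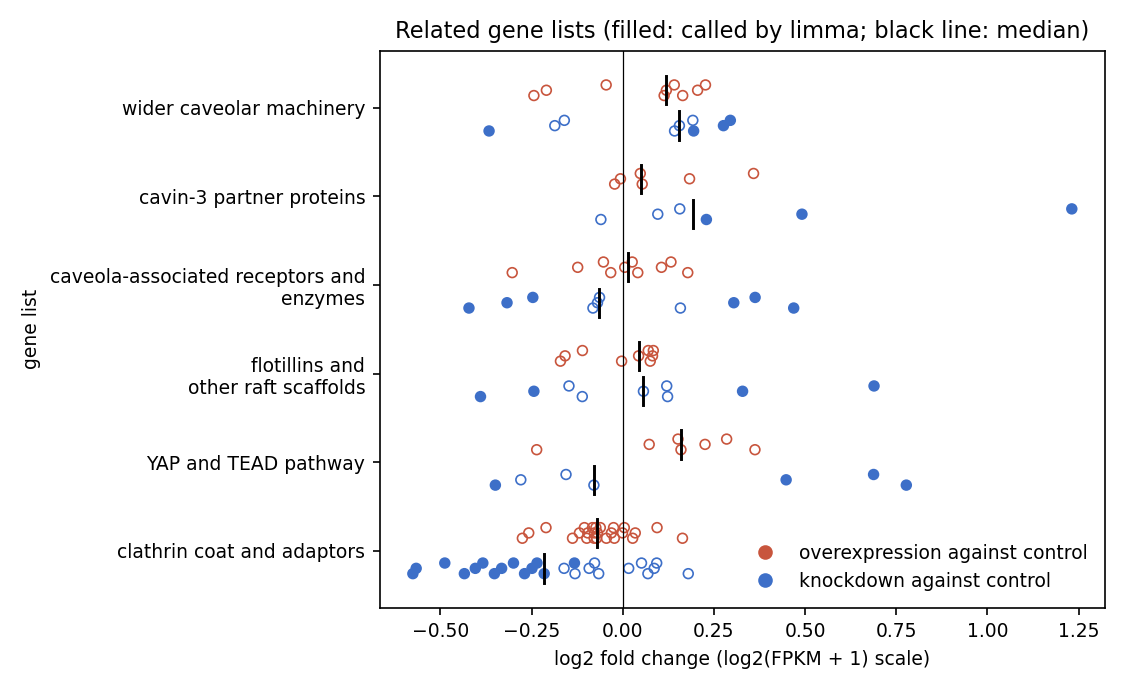
Log2 fold change of every tested gene in 6 lists around caveolae, for overexpression against control and for knockdown against control. Filled points were called by limma and black lines are list medians. No point is filled under overexpression, and under knockdown 14 of 25 clathrin-coat genes are filled on the lower side.

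Differences of the genes around Prkcdbp on chromosome 7 were smaller than its own. Prkcdbp was chosen for its differences in these libraries, so this comparison is a description and says nothing about the locus. Of 25 annotated genes that start within 250 kb of its start, 17 were in the table and 7 were tested. Under overexpression limma called 0 of the 7, and their log2 fold changes ran from -0.16 to 0.10. Under knockdown they ran from -0.32 to 0.19, with 2 lower and 0 higher, beside 31.3% and 14.8% of all tested genes. Apbb1, an adaptor of the amyloid precursor protein 99.4 kb upstream, fell by 0.32 ± 0.07 (SE, limma, adjusted p = 0.00677), a call lost without control 1 (0.0572), with 0.00547 the lowest of the alternatives. Arfip2, 158.1 kb upstream, fell by 0.18 ± 0.06 (limma, adjusted p = 0.0302), a call lost after median log ratio scaling (0.188) and quantile normalization (0.142) and without control 1 (0.0887), control 2 (0.132) or knockdown 1 (0.133). The nearest tested genes were Smpd1, the acid sphingomyelinase gene, 72.1 kb upstream, at 14.97 and 13.3 FPKM under overexpression, 16.3 and 14.2 under knockdown, and 14.9 and 13.8 in control cells, and Fam160a2, 82.2 kb downstream, at 3.18 and 2.78, 3.12 and 3.07, and 2.88 and 2.90 FPKM.

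**Figure D5:**
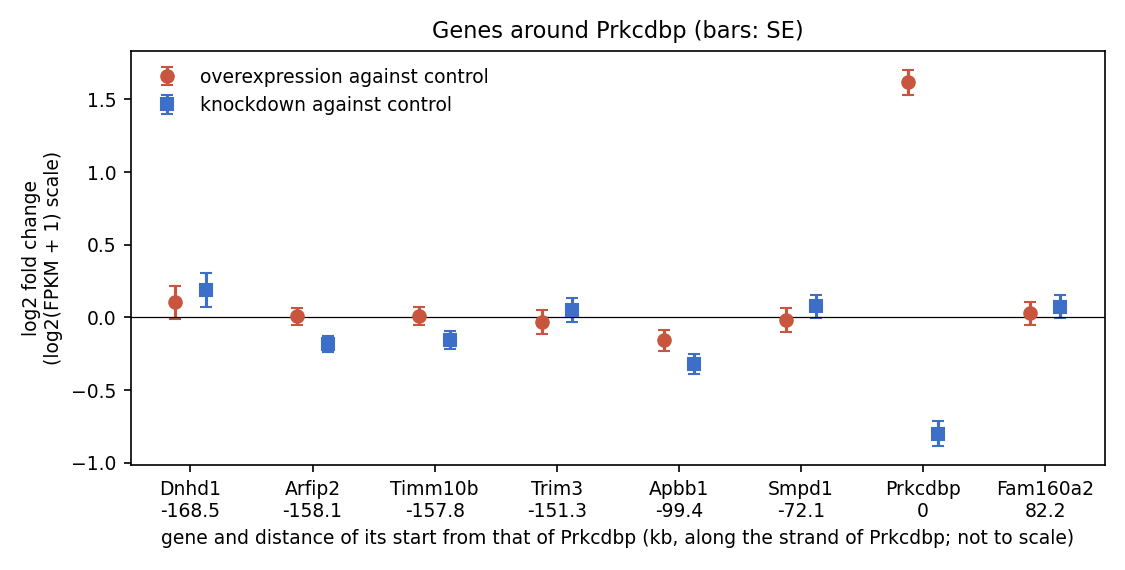
Log2 fold change with its SE of Prkcdbp and of the 7 tested genes that start within 250 kb of it, in order of distance along the strand of Prkcdbp. The neighbours lie between -0.32 and 0.19 in both contrasts, and Prkcdbp, which was chosen for its differences, at 1.62 under overexpression and -0.80 under knockdown.

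Among 102 other tested genes whose group means span at least 1 on the log2 scale, the 6 most like Prkcdbp over the 6 libraries were Pnlip (Pearson r = 0.979), Gsta4 (0.945), Lix1 (0.941), S100g (0.928), Osgin1 (0.873) and Zg16 (0.870). These correlations describe 6 libraries in 3 groups and are not tested. Gsta4, a glutathione transferase gene, stood at 1.64 and 1.89 FPKM under overexpression, 0.442 and 0.265 under knockdown, and 0.741 and 1.08 in control cells. Lix1 stood at 5.77 and 5.84, 2.00 and 2.49, and 4.27 and 4.004 FPKM in the same order of groups. Gsta4 and Lix1 separated the 3 groups in the order in which Prkcdbp did. They were picked for their likeness to Prkcdbp, so this order is not a separate observation. Osgin1, an oxidative stress response gene, stood at 8.28 and 6.14 FPKM under overexpression, 3.13 and 3.47 under knockdown, and 2.73 and 3.26 in control cells, so its overexpression values were the highest, as with Prkcdbp, and its knockdown and control values overlapped.

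Pnlip, S100g and Zg16 are transcripts of pancreas and intestine. Picked for the same likeness, they too separated the 3 groups in the order of Prkcdbp. Pnlip, the pancreatic lipase gene and the gene most like Prkcdbp, stood at 2.24 and 3.38 FPKM under overexpression, 0.0269 and 0.128 under knockdown, and 0.957 and 0.758 in control cells. S100g, a calcium-binding protein gene, stood at 1.90 and 3.84 FPKM under overexpression, was listed at 0 in both knockdown libraries, and stood at 1.39 and 0.830 FPKM in control cells. Zg16, a gene of secretory granules and goblet cells, stood at 3.19 and 3.64 FPKM under overexpression, was listed at 0 in both knockdown libraries, and stood at 1.86 and 2.44 FPKM in control cells.

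These 3 genes belong to a list of 21 genes of the digestive tract that was drawn up after they were seen, so its values are a description with no test. Of the 21 genes 11 were listed at 0 in both knockdown libraries and 19 were under 1 FPKM there, the exceptions being Cela1 and Vil1. Without these 2 genes, singled out after their values were seen, summed FPKM was 32.7 and 49.1 under overexpression, 0.842 and 0.684 under knockdown, and 39.2 and 30.3 in control cells. With them the sums were 61.4 and 78.2 under overexpression, 25.2 and 25.8 under knockdown, and 67.4 and 61.7 in control cells. In all 21 genes both control values lay above both knockdown values, beside 47.9% of all tested genes, which include 16 of the 21. In 6 of the 21 (Pnlip, S100g, Zg16, Clps, Cela2a and Cpa1) both overexpression values also lay above both control values, which is the order of Prkcdbp. Over all tested genes 23.3% lay above control in this way under overexpression. Pnlip, S100g and Zg16 had been picked for their likeness to Prkcdbp. The overexpression sums of the list overlapped those of control cells. The part of these transcripts in the values of Prkcdbp was not tested.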

How the data were processed

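The authors deposited 1 table of FPKM values for 6 RNA sequencing libraries of Neuro-2a cells. Per the labels' protocols, a kit that selects poly(A) RNA and keeps strand was used on total RNA. HISAT2 with the build mm10, HTSeq, Cufflinks, DESeq and Trimmomatic are named in the submitters' processing notes. Their versions, the annotation and whether counting used strand are not stated there. FPKM is scaled to each library's total, so a change in abundant genes shifts the rest. It holds no counts, so no counting intervals are given.

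Rows with a mean of at least 1 FPKM were fitted as log2(FPKM + 1) with limma 3.58.1 in R 4.3.3, with 1 mean per group, all 6 libraries and an expression trend, leaving 3 residual degrees of freedom, and adjusted over all 10721 rows by the Benjamini-Hochberg method. The calculation was tested on simulated data. The members and gene lists were chosen with earlier results of these data known, and the digestive-tract list after seeing the genes most like Prkcdbp. Named genes were the 7 members, all of the wider caveolar machinery, up to 4 called genes of each other list by smallest p, the 6 genes most like Prkcdbp, and genes within 250 kb of Prkcdbp or Cav1. Genes named as near 0, as below the filter or as not called, and markers, were added to these after their values were seen. Positions are from GENCODE release M 21 on GRCm38, the assembly named mm10, and promoters from RefSeq.

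Alternatives were no filter on low values, a minimum mean of 5 FPKM, pseudocounts of 0.1 and 0.5, median log ratio scaling, quantile normalization, no expression trend, only the 4 libraries compared, a replicate block and each library left out. Applying them to the related lists was decided after seeing the data.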

Additional observations from a re-analysis of the deposited data

How the results depend on the processing

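Under overexpression 165 genes were called over all tested genes, and the count was 9 without a filter, 97 without the expression trend and 14 to 172 with 1 library left out. Under knockdown 4948 genes were called (1590 higher, 3358 lower) and 3375 to 4845 with 1 library left out. The split was 2259 higher and 2242 lower after median log ratio scaling, and 2003 and 2292 after quantile normalization. Of overexpression against knockdown 4345 were called (3013 higher, 1332 lower) and 2938 to 3955 with 1 library left out, and the split was 1914 and 1931 after median log ratio scaling, and 1930 and 1707 after quantile normalization.

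Of the 4 tested caveolar genes other than Prkcdbp, limma called 1 under overexpression, 0 without a filter (3 at an unadjusted p under 0.05) and 0 to 1 with 1 library left out. Under knockdown 2 to 4 were called with 1 library left out. Of overexpression against knockdown 2 were called, 0 after median log ratio scaling (0 at an unadjusted p under 0.05), 1 after quantile normalization and 0 to 2 with 1 library left out. Where a group kept 1 library, that library was assumed to vary like the others. Signs turned for Pacsin2 under overexpression without overexpression 1 (-0.0033, against 0.0391 without overexpression 2), for Pacsin2 and Cltc under knockdown after quantile normalization (0.01 and 0.0375), and for Ptrf between overexpression and knockdown without overexpression 1 (0.0021) or knockdown 2 (0.0853), against -0.0933 without knockdown 1. The causes were not tested. With a filter at 5 FPKM, Prkcdbp and Ehd2 had no value.

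Deviations from the group mean were compared between libraries with the same replicate number. Their correlations were -0.117 for overexpression with control, 0.007 for knockdown with control and -0.211 for overexpression with knockdown. With 2 libraries per group, these values cannot settle whether a shared number marks a shared batch. With a replicate block 66 genes were called under overexpression, 4504 under knockdown and 3820 of overexpression against knockdown. The table holds no counts, so the error of values near 0, those of Cav1 and Cav2 among them, is unknown.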
